A study of Mus musculus with 12 samples.

Results

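Matrix metalloproteases (Mmp), ADAMTS proteases (a disintegrin and metalloprotease with thrombospondin motifs) and the tissue inhibitors of metalloproteases (Timp) were followed in primary mouse mammary organoids exposed to the GSK3 inhibitor CHIR99021. The members were defined by gene symbol, as every Mmp, Adamts or Timp gene followed by its number, which gave 45 of the 25210 genes counted. This set was chosen with earlier results of these data known. The members comprised 22 Mmp, 19 Adamts and 4 Timp genes, of which 17, 17 and 3 (37 in all) passed the filter on low counts and were tested. Each of 3 organoid cultures came from its own virgin FVB/N female of 8 to 11 weeks, and each was split over 4 treatments for 7 days. The treatments were the solvent DMSO and CHIR99021 at 1, 1.5 or 3 µM, which made 12 libraries, 3 per treatment. All groups shared the same growth-factor-reduced Matrigel and minimal medium, and the labels name no allele, transgene or other agent. CHIR99021 blocks the kinase that marks β-catenin for breakdown, and the labels give activation of WNT/CTNNB1 signalling as its purpose.

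The Mmp enzymes are zinc proteases that cut collagens, gelatins, laminins and other matrix proteins, and most are secreted as inactive precursors. The Adamts enzymes are secreted proteases that trim procollagens and cut large proteoglycans such as versican. The Timp proteins bind the active site of these proteases and block it. In the mammary gland this system is known for remodelling the matrix around growing ducts and during involution, with stromal cells as a major source of many of its enzymes.

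Levels are given as counts per 1 M counts of a library (CPM), and a value list follows the order of cultures 1, 2 and 3. A gene was called where edgeR's quasi-likelihood test gave a p under 0.05 after adjustment over all 15316 genes tested. A log2 change is edgeR's log2 fold change, against DMSO unless another dose is named, with its SE. An alternative fit added the culture number as a block, which compares treatments within a culture. Library totals ran from 10.1 to 24.5 M counts. Epithelial marker genes (Epcam, Cdh1, Krt8, Krt18, Krt5 and Krt14) summed to 3269 to 5640 CPM in the DMSO libraries, with none at 0 in any library. Fibroblast, leukocyte and endothelial markers were also detected in all 12 libraries, so RNA of cells other than epithelium was present throughout. On the first principal component (66.3% of the variance) libraries were ordered by dose within each culture, and on the second (14.4%) the cultures ran 1, 2, 3 at each dose.

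9 members lie side by side on chr9:7272514-7699585 (GRCm38), a stretch of 427 kb that holds Mmp13, Mmp12, Mmp1b, Mmp3, Mmp1a, Mmp10, Mmp8, Mmp27 and Mmp7. These are shown first because 5 of the 6 members with a rising slope over dose are among them. Of all genes tested 30.2% had a rising slope. Mmp1b and Mmp7 passed the filter only through the 3 µM group, so their rising slopes are not independent of that filter. Mmp1a and Mmp27 were not tested. RefSeq promoters (GRCm38.p6, 250 bases before to 50 after each annotated start) were found for 31 of the 45 members, as 34 promoters. They were searched on both strands for the AP-1 motif TGACTCA (reverse TGAGTCA) and for the TCF/LEF motif CTTTGAT (reverse ATCAAAG), the DNA letters bound by Fos/Jun and by the β-catenin partners. The AP-1 letters were present for 7 of the 31 members, all 7 in this cluster, against 5.20% of all 32851 mouse promoters of the same length. That share is per promoter, whereas a member was counted if any of its promoters held the letters. These 7 are neighbouring Mmp genes, and the Mmp1a and Mmp1b windows are much alike, so they are not 7 independent matches. Members without a promoter entry were not searched. They include Mmp9 and Mmp2, and all of them lie outside this cluster. The windows below run 5′ to 3′ on the gene's own strand, with the AP-1 letters in capitals.
Mmp13: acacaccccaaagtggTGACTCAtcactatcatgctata
Mmp12: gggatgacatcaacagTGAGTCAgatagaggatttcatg
Mmp1b: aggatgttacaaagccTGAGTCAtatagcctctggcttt
Mmp3: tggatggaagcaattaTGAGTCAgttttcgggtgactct
Mmp1a: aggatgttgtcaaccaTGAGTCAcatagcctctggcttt
Mmp10: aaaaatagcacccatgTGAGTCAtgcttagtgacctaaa
Mmp7: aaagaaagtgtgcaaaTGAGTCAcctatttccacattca
In that order the windows are chr9:7272463-7272501, chr9:7347314-7347352, chr9:7388097-7388135, chr9:7445760-7445798, chr9:7464052-7464090, chr9:7502263-7502301 and chr9:7692011-7692049, with Mmp1b on the minus strand and the other 6 on the plus strand. The first motif base lay 35 bases before the start of Mmp13, 44 before Mmp12, 46 before Mmp3, 63 before Mmp10 and before Mmp7, 73 before Mmp1a and 93 before Mmp1b. For Mmp12 this is an annotated RefSeq start inside the gene as the table places it, and the promoter of its outer start held no such letters.

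The TCF/LEF letters were found for 1 of the 31 members searched, Mmp7 (matrilysin, known as a β-catenin target in intestinal tumours), against 3.73% of all mouse promoters. The stretch below, chr9:7691840-7692109 on the plus strand, runs from 250 bases before its start to 20 after it and holds both motifs in capitals, AP-1 first. They do not share bases, and the TCF/LEF letters lie just after this start and 247 bases before another annotated start of Mmp7.
Mmp7: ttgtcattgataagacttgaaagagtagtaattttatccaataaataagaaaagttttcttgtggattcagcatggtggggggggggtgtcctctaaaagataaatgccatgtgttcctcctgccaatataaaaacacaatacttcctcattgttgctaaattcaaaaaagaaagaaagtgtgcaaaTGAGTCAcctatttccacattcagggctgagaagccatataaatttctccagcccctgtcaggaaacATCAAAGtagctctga
A match describes the letters in a window and no binding was measured.

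At 3 µM, 24 of the 37 tested members were called against DMSO, 5 higher and 19 lower. Of all genes tested 57.5% were called, 29.9% higher and 27.7% lower, so the members called lower were 51.4% of those tested and the members called higher 13.5%. The 5 that rose were all Mmp genes (Mmp1b, Mmp7, Mmp9, Mmp10 and Mmp13), whereas 11 Adamts genes, 7 Mmp genes and Timp2 fell. Mmp1b and Mmp7 were tested only because their 3 µM libraries passed the filter. Their higher calls, here and below, are therefore not independent of that filter. The median log2 fold change was −1.11 over the members and −0.03 over all genes tested. With scaling by library size only the medians were −1.32 and −0.23, with 5 members higher and 20 lower, against 57.4% of all genes called in either direction. With the culture block 30 members were called, 6 higher and 24 lower, against 68.9% of all genes (34.1% higher, 34.8% lower), and DESeq2 called 26, against 60% of all genes. In these bulk libraries a lower level from fewer cells of a type and one from less RNA per cell cannot be told apart.

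**Figure D1:**
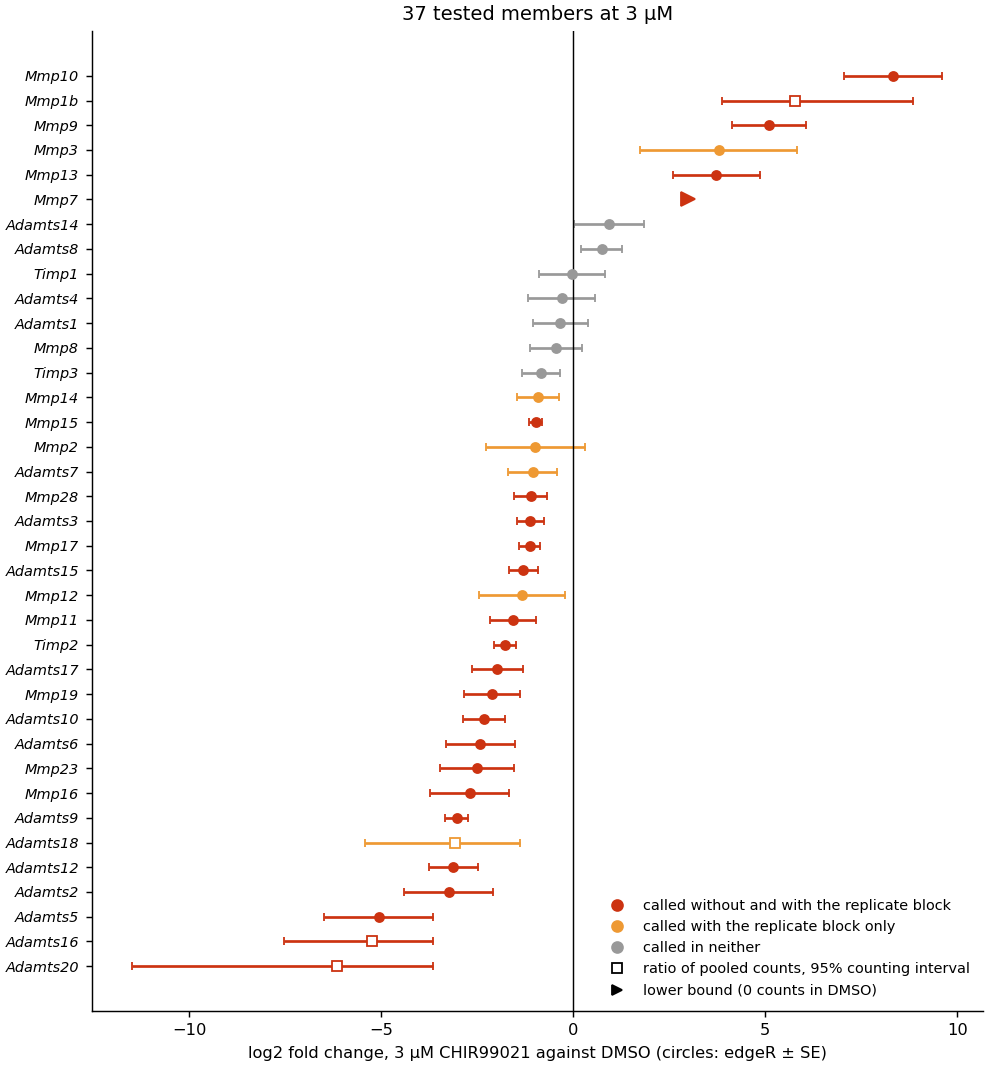
Log2 fold change at 3 µM CHIR99021 against DMSO for the 37 tested members. Circles are edgeR estimates ± SE, open squares are ratios of pooled counts with a 95% counting interval where a group held 1 to 3 counts, and the triangle is the lower bound for Mmp7, which had 0 counts in DMSO. Red members were called with and without the culture block (5 higher, 19 lower), orange ones with the block only, grey ones in neither.

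Among the collagenases, which cut fibrillar collagen, Mmp13 (collagenase-3, chr9:7272514-7283333) was at 4.58, 6.91 and 24.6 CPM in DMSO, 14.2, 14.9 and 79.1 at 1 µM, 19.2, 45.9 and 225 at 1.5 µM and 71.4, 151 and 261 at 3 µM. It was higher at each dose step in all 3 cultures, and the 3 µM libraries lay above all DMSO libraries. Its call at 3 µM (log2 change 3.73 ± 1.13, adjusted p = 0.0167) was lost without DMSO replicate 1 or 2, with adjusted p up to 0.0592. At 1 µM it was called with the block (adjusted p = 0.0429), and at 1.5 µM with the block (0.000436) and by DESeq2 (0.0173), but not by edgeR without the block.

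Mmp1b (chr9:7368239-7388047), a rodent counterpart of interstitial collagenase, held counts of 0, 1 and 1 in DMSO, 0, 2 and 1 at 1 µM, 2, 5 and 4 at 1.5 µM and 24, 28 and 40 at 3 µM. The pooled ratio at 3 µM was 54.7, with a 95% counting interval of 14.7 to 458 (adjusted p = 0.000164). Its close paralog Mmp1a, which was not tested, had 0 counts in each DMSO library and 7, 7 and 9 at 3 µM, which is at least 1.77-fold higher. Mmp1a and Mmp1b resemble each other, and how reads shared by paralogs were counted is not stated, so their separate values are uncertain. Mmp8, the neutrophil collagenase, averaged 0.653 ± 0.257 CPM in DMSO and 0.460 ± 0.441 at 3 µM (mean ± SD, n = 3) and was not called (log2 change −0.44 ± 0.683, adjusted p = 0.595).

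The 2 gelatinases, which cut denatured collagen, differed in their calls, and the difference between them was not tested. Mmp9 (gelatinase B, chr2:164940780-164955850) was at 1.07, 1.22 and 6.36 CPM in DMSO, 5.18, 8.09 and 30.1 at 1 µM, 26.6, 31.5 and 90.0 at 1.5 µM and 61.4, 97.5 and 145 at 3 µM. It was higher at each step in every culture, with no overlap between DMSO and 1.5 or 3 µM. It rose at 1.5 µM (log2 change 4.06 ± 0.921, adjusted p = 0.00993) and at 3 µM (log2 change 5.10 ± 0.958, adjusted p = 0.00128), while at 1 µM (2.28 on the log2 scale, adjusted p = 0.348) it was called under the block alone (0.0113). Mmp2 (gelatinase A, chr8:92827328-92853417) was at 147, 494 and 969 CPM in DMSO, 114, 428 and 1209 at 1 µM, 42.8, 212 and 707 at 1.5 µM and 21.9, 143 and 646 at 3 µM. The cultures lay far apart at each dose, and each culture was lower at 3 µM than in its own DMSO library. The test without the block did not call Mmp2 at 3 µM (log2 change −0.99 ± 1.29, adjusted p = 0.530), and the block did (adjusted p = 0.0015).

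The stromelysins Mmp3 and Mmp10 degrade proteoglycans, laminin and fibronectin and activate other precursors. Mmp10 (stromelysin-2, chr9:7502352-7510238) was at 0.267, 0.508 and 0.215 CPM in DMSO, 0.711, 0.731 and 1.87 at 1 µM, 2.86, 8.18 and 11.0 at 1.5 µM and 11.8, 48.1 and 237 at 3 µM. Its DMSO libraries held only 6, 5 and 4 counts, so the size of its fold changes against DMSO is uncertain. The 1.5 and 3 µM libraries lay above all DMSO libraries, and at 3 µM the value of culture 3 was the highest and that of culture 1 the lowest. Mmp10 rose at 1.5 µM (log2 change 4.58 ± 1.21, adjusted p = 0.0196), at 3 µM (log2 change 8.32 ± 1.28, adjusted p = 0.000392) and between these doses (log2 change 3.74 ± 0.951, adjusted p = 0.0157). The 1.5 µM call was lost without any 1 of the 3 DMSO libraries (adjusted p up to 0.0736), and the call between doses without replicate 1 or 2 at 1.5 µM (up to 0.0544).

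Mmp3 (stromelysin-1, chr9:7445822-7455972) was at 13.8, 22.4 and 162 CPM in DMSO, 4.57, 10.8 and 227 at 1 µM, 8.66, 20.8 and 613 at 1.5 µM and 85.1, 394 and 2274 at 3 µM. Its level in DMSO already ranged widely, and DMSO culture 3 lay above culture 1 at 3 µM. Each culture was nevertheless higher at 3 µM than in its own DMSO library, with log2 differences of 2.58, 4.10 and 3.81 (pseudocount 0.5 CPM). Without the block it was not called (log2 change 3.79 ± 2.05, adjusted p = 0.136). It was called with the block (adjusted p = 0.000361), by DESeq2 (0.0450) and as a slope over dose (1.32 per µM, edgeR adjusted p = 0.0478).

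Matrilysin, Mmp7 (chr9:7692090-7699585), is a small Mmp made mainly by glandular epithelium. It held 0 counts in all 3 DMSO libraries, 1, 0 and 0 at 1 µM, 3, 2 and 4 at 1.5 µM and 37, 43 and 24 at 3 µM. Set against a floor of 3 counts in the smallest library (0.305 CPM), it was at least 8.01-fold higher at 3 µM (adjusted p = 0.000137). At 1.5 µM it was called too (adjusted p = 0.0228), though its level there was under that floor, and the call was lost without DMSO replicate 1 or 3 or without replicate 1 or 3 at 1.5 µM (up to 0.0603). Mmp1b and Mmp7 passed the filter only through the 3 µM group. A stretch of 123 exon bases of Mmp7 is shared with AV064505 on the other strand, and 157 bases of Mmp1b with Mmp12. The sources used here do not say if strand entered the counting, so reads there cannot be assigned with certainty.

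**Figure D2:**
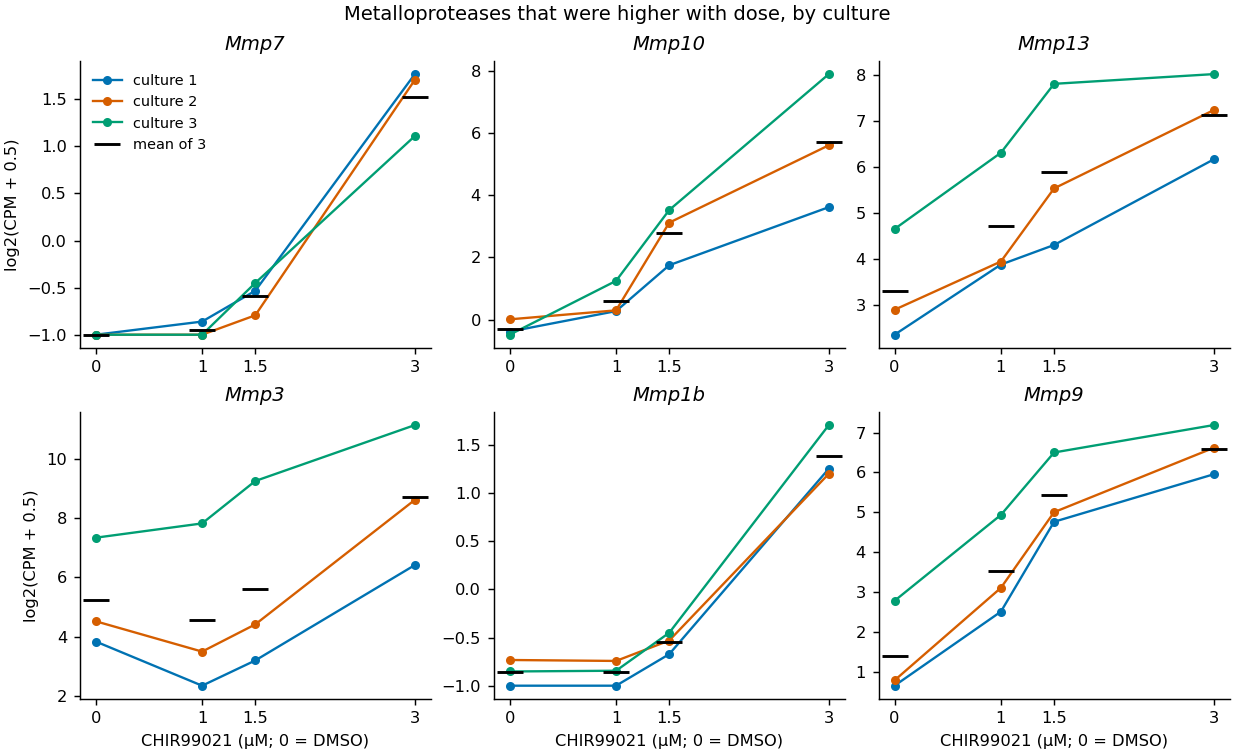
Level of 6 metalloproteases, as log2 of CPM plus 0.5, against CHIR99021 dose (0 is DMSO), 1 line per culture, with the mean of the 3 values as a black bar. Mmp9, Mmp10 and Mmp13 were higher at each step in all 3 cultures. Mmp7 and Mmp1b stayed near 0 CPM up to 1 µM, and Mmp3 of culture 3 lay above the other cultures at each dose.

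The third stromelysin, Mmp11 (chr10:75923222-75932502), differs from its namesakes in leaving the cell already active. It was at 32.3, 39.4 and 60.2 CPM in DMSO, 30.5, 55.7 and 88.2 at 1 µM, 12.0, 35.8 and 30.0 at 1.5 µM and 4.86, 15.2 and 24.2 at 3 µM. It fell at 3 µM (log2 change −1.57 ± 0.599, adjusted p = 0.0448), where all 3 libraries lay below DMSO, and its highest mean was at 1 µM.

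Of the other secreted enzymes, Mmp19 and Mmp28 were called lower and Mmp12 with the block only. Mmp19 (chr10:128790953-128800824) was at 31.6, 67.4 and 52.2 CPM in DMSO, 19.9, 40.4 and 37.4 at 1 µM, 7.64, 17.5 and 25.6 at 1.5 µM and 1.96, 9.05 and 23.7 at 3 µM. It was lower at each step in all cultures (log2 change −2.12 ± 0.735, adjusted p = 0.0308 at 3 µM). Mmp28 (epilysin, an enzyme of epithelia, chr11:83440768-83463071) was at 12.98, 19.2 and 6.57 CPM in DMSO, 7.11, 10.1 and 5.34 at 1 µM, 3.25, 4.26 and 1.74 at 1.5 µM and 5.57, 5.33 and 7.04 at 3 µM. Its lowest levels were at 1.5 µM (log2 change −2.05 ± 0.434, adjusted p = 0.00715) and not at 3 µM (log2 change −1.10 ± 0.422, adjusted p = 0.0447), and only the block called the difference between these doses (adjusted p = 0.0284). In culture 3 the 3 µM value was close to that of DMSO. Mmp12, the macrophage elastase (chr9:7344381-7369499), averaged 61.6 ± 37.3 CPM in DMSO and 24.5 ± 27.0 at 3 µM (log2 change −1.33 ± 1.12, adjusted p = 0.329; under the block adjusted p = 0.00331). Mmp21 and Mmp27 were not tested, with at most 5 and 9 counts in a library. Exons of Mmp19 (22.3% of its exon bases, with Tmem198b), Mmp11 and Mmp28 are shared with genes on the other strand, and so are some of Mmp24, Adamts4, Adamts7, Adamts8 and Adamts9, which leaves the same uncertainty.

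The membrane-bound enzymes that were tested were lower or not called. Mmp14, the main activator of the Mmp2 precursor at the cell surface (chr14:54431604-54441258), was at 231, 363 and 543 CPM in DMSO, 227, 419 and 679 at 1 µM, 156, 244 and 393 at 1.5 µM and 96.6, 171 and 332 at 3 µM. Each culture was lower at 3 µM than in its own DMSO library, but the groups overlapped, and Mmp14 was not called (log2 change −0.92 ± 0.545, adjusted p = 0.171), except under the block (3.12e-05) or in the fit that lacked replicate 3 at 3 µM (0.0450). Mmp15 (chr8:95352268-95374293) was at 83.4, 78.3 and 85.9 CPM in DMSO, 74.6, 70.7 and 61.2 at 1 µM, 69.4, 65.2 and 43.8 at 1.5 µM and 37.2, 38.9 and 50.2 at 3 µM. Its cultures lay close together, and it was the tested member with the smallest SE at 3 µM (log2 change −0.97 ± 0.174, adjusted p = 0.000923).

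Mmp16 (chr4:17852893-18119145) was at 2.36, 3.25 and 3.50 CPM in DMSO, 0.863, 1.51 and 4.72 at 1 µM, 0.446, 0.653 and 1.51 at 1.5 µM and 0, 0.128 and 1.24 at 3 µM, and was lower at 3 µM (log2 change −2.70 ± 1.03, adjusted p = 0.0454). Mmp17, held by a lipid anchor (chr5:129584169-129608875), was at 3.33, 5.28 and 5.28 CPM in DMSO, 3.00, 3.22 and 4.94 at 1 µM, 2.61, 2.57 and 3.19 at 1.5 µM and 2.04, 1.86 and 2.42 at 3 µM, lower at each step in all 3 cultures (log2 change −1.13 ± 0.277, adjusted p = 0.00570 at 3 µM). Mmp23 (chr4:155650655-155653384), an enzyme freed from the membrane by cleavage, was at 3.78, 7.82 and 13.8 CPM in DMSO, 1.78, 6.09 and 10.5 at 1 µM, 1.21, 3.07 and 6.26 at 1.5 µM and 0.235, 0.898 and 3.31 at 3 µM (log2 change −2.50 ± 0.960, adjusted p = 0.0459). All 3 had no 3 µM library as high as the lowest DMSO library. Mmp24 and Mmp25 of the same class were not tested. Their highest counts in a library were 14 and 11, both at 3 µM, against at most 2 and 1 in DMSO. The pooled ratio at 3 µM was 14.9 for Mmp24 (counting interval 3.71 to 129) and 20.2 for Mmp25 (3.17 to 845). In culture 3 Mmp25 held 1 count both in DMSO and at 3 µM.

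Of the 7 Adamts enzymes that cut hyaluronan-binding proteoglycans (hyalectans), 4 fell at 3 µM. Adamts9 (chr6:92772699-92943492) was at 67.0, 118 and 61.0 CPM in DMSO, 42.0, 56.2 and 39.3 at 1 µM, 39.9, 40.4 and 32.0 at 1.5 µM and 7.21, 10.8 and 11.9 at 3 µM. It had the lowest adjusted p of the members at 3 µM (log2 change −3.03 ± 0.293, adjusted p = 2.23e-05), had fallen at 1.5 µM (log2 change −1.13 ± 0.271, adjusted p = 0.0129) and fell between these doses (log2 change −1.90 ± 0.283, adjusted p = 0.00129). No library with CHIR99021 reached the lowest DMSO library. Adamts5 (aggrecanase-2, chr16:85858170-85901125) was at 13.3, 84.0 and 194 CPM in DMSO, 6.30, 21.6 and 93.3 at 1 µM, 3.82, 6.69 and 35.7 at 1.5 µM and 1.25, 1.80 and 5.59 at 3 µM. It was lower at each step in each culture, and the DMSO cultures themselves spanned from 13.3 to 194 CPM. Its log2 fold change at 3 µM was −5.06 ± 1.41 (adjusted p = 0.0112), and under the block it was also called at 1 µM (−1.39 on the log2 scale in that fit, adjusted p = 0.0380).

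Adamts15 (chr9:30899155-30922452) was at 107, 72 and 75.5 CPM in DMSO, 107, 93.4 and 80.3 at 1 µM, 115, 83.8 and 39.2 at 1.5 µM and 49.2, 29.0 and 25.6 at 3 µM. It was called lower only at 3 µM (log2 change −1.30 ± 0.372, adjusted p = 0.0130, and log2 change −1.20 ± 0.371, adjusted p = 0.0350 against 1.5 µM). Adamts20 (chr15:94270163-94465418) held 51, 11 and 23 counts in DMSO (2.27, 1.12 and 1.24 CPM), 1.93, 1.32 and 1.82 CPM at 1 µM, 0.764, 0.653 and 0.985 CPM at 1.5 µM and counts of 0, 0 and 1 at 3 µM. The pooled level was 71.5-fold lower at 3 µM, with a counting interval of 12.5 to 2857 (adjusted p = 8.62e-05), and against 1.5 µM the adjusted p was 0.00139.

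Adamts1, Adamts4 and Adamts8 of this class were not called at 3 µM. Adamts1 averaged 95.03 ± 53.8 CPM in DMSO and 75.5 ± 25.7 at 3 µM (log2 change −0.33 ± 0.716, adjusted p = 0.710), Adamts4 67.1 ± 25.4 and 54.4 ± 56.0 (log2 change −0.30 ± 0.862, adjusted p = 0.781). Both were called lower at 1.5 µM with the block only (adjusted p = 0.0331 and 0.0238). Adamts8 averaged 8.25 ± 2.62 and 13.9 ± 8.61 CPM, higher in cultures 1 and 2 and lower in culture 3 (log2 change 0.75 ± 0.535, adjusted p = 0.253), and was called higher without replicate 3 at 3 µM (adjusted p = 0.0366).

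The procollagen N-proteinases, which remove the amino-terminal propeptide of fibrillar collagens, split. Adamts2 (chr11:50602084-50807573) was at 53.1, 149 and 315 CPM in DMSO, 39.5, 102 and 294 at 1 µM, 14.7, 37.5 and 134 at 1.5 µM and 2.74, 15.3 and 36.4 at 3 µM. It was lower at each step in all 3 cultures (log2 change −3.24 ± 1.15, adjusted p = 0.0339 at 3 µM). Adamts3, which also serves the processing of Vegfc (chr5:89673841-89883334), was at 29.9, 15.5 and 13.2 CPM in DMSO, 25.9, 19.1 and 19.7 at 1 µM, 33.2, 24.9 and 33.0 at 1.5 µM and 13.2, 8.21 and 5.87 at 3 µM. Its mean was highest at 1.5 µM, where only the block called it higher than DMSO (0.71 on the log2 scale in that fit, adjusted p = 0.0229), and it was lower at 3 µM than in DMSO (log2 change −1.11 ± 0.352, adjusted p = 0.0203) and than at 1.5 µM (log2 change −1.74 ± 0.356, adjusted p = 0.00590). Adamts14 averaged 2.77 ± 1.32 CPM in DMSO and 5.29 ± 5.17 at 3 µM and was not called (log2 change 0.94 ± 0.918, adjusted p = 0.400).

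Adamts7 and Adamts12 are known for cutting cartilage oligomeric matrix protein. Adamts12 (chr15:11064790-11346867) was at 46.2, 87.7 and 87.0 CPM in DMSO, 32.2, 56.6 and 69.2 at 1 µM, 13.3, 22.4 and 45.7 at 1.5 µM and 3.14, 6.67 and 15.5 at 3 µM. It was lower at each step in every culture (log2 change −3.12 ± 0.629, adjusted p = 0.00194). Adamts7 averaged 35.8 ± 14.5 CPM in DMSO and 17.2 ± 13.6 at 3 µM (log2 change −1.05 ± 0.635, adjusted p = 0.179) and passed the threshold under the block (0.00142) or in the fit that lacked replicate 3 at 3 µM (0.0302). Adamts13, which cuts von Willebrand factor, had at most 6 counts in a library and was not tested.

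Of the remaining Adamts genes, Adamts10 (chr17:33524204-33553782), an enzyme of fibrillin microfibrils, was at 13.02, 25.4 and 30.2 CPM in DMSO, 9.95, 24.7 and 26.2 at 1 µM, 6.62, 12.9 and 15.9 at 1.5 µM and 1.96, 5.13 and 6.62 at 3 µM. It was lower at each step in all cultures (log2 change −2.31 ± 0.549, adjusted p = 0.00484). Adamts16 (chr13:70727802-70841811) was at 2.31, 2.23 and 3.23 CPM in DMSO, 6.91, 4.92 and 1.02 at 1 µM and 1.85, 2.07 and 0.406 at 1.5 µM, and held 0, 1 and 2 counts at 3 µM against 52, 22 and 60 in DMSO. Pooled, it was 37.6-fold lower, with a counting interval of 12.6 to 184 (adjusted p = 0.00177). Adamts17 (chr7:66839735-67152625) was at 3.64, 2.23 and 7.22 CPM in DMSO, 6.65, 4.53 and 4.72 at 1 µM, 8.78, 6.07 and 2.49 at 1.5 µM and 0.549, 0.578 and 2.21 at 3 µM. Like Adamts3 it had its highest mean at 1.5 µM and was lower at 3 µM than in DMSO (log2 change −1.97 ± 0.658, adjusted p = 0.0258) and than at 1.5 µM (log2 change −2.37 ± 0.662, adjusted p = 0.0234).

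Adamts6 averaged 1.39 ± 0.998 CPM in DMSO and, with counts of 1, 2 and 8, 0.253 ± 0.260 at 3 µM, a mean under the floor, and was called lower (edgeR adjusted p = 0.0396). Adamts18 had 6, 6 and 18 counts in DMSO and 1, 0 and 2 at 3 µM, a pooled level 8.41-fold lower (counting interval 2.62 to 43.1, edgeR adjusted p = 0.0600, with the block 0.00518, by DESeq2 0.0397). Adamts19 was not tested. Its counts were 1, 15 and 14 in DMSO and 0 in each 3 µM library, which is at least 2.54-fold lower.

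Of the tested inhibitors, Timp2, which also takes part in the activation of Mmp2 by Mmp14, fell and the others were not called in a group comparison. Timp2 (chr11:118301069-118355740) was at 448, 498 and 637 CPM in DMSO, 389, 479 and 556 at 1 µM, 232, 286 and 281 at 1.5 µM and 94.6, 140.3 and 229.6 at 3 µM. It was lower at each step in each culture, with no overlap between DMSO and 1.5 or 3 µM. It fell at 1.5 µM (log2 change −0.99 ± 0.283, adjusted p = 0.0271) and at 3 µM (log2 change −1.77 ± 0.289, adjusted p = 0.000551), and the 1.5 µM call was lost without DMSO replicate 2 or 3 or without any 1 of the 3 libraries at 1.5 µM (adjusted p up to 0.0993).

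Timp1, a broad inhibitor of secreted Mmp enzymes (chrX:20870166-20874735), was at 74.8, 119 and 78.6 CPM in DMSO, 48.6, 117 and 175 at 1 µM, 46.9, 172 and 424 at 1.5 µM and 16.1, 83.0 and 168 at 3 µM. The cultures went apart, since at 3 µM culture 1 was at 21.5% of its DMSO value, culture 2 at 69.7% and culture 3 at 214%. Cultures 2 and 3 had their highest values at 1.5 µM, and neither 1.5 µM (log2 change 1.24 ± 0.864, adjusted p = 0.310) nor 3 µM (log2 change −0.03 ± 0.854, adjusted p = 0.980) was called. Timp3, which binds to the matrix and also inhibits Adam17 and aggrecanases, averaged 203 ± 56.6 CPM in DMSO and 114 ± 48.3 at 3 µM (log2 change −0.84 ± 0.489, adjusted p = 0.165). All its 3 µM libraries (58.0, 143 and 140 CPM) lay below those in DMSO (269, 168 and 174), and the block called its slope over dose as falling. Of its exon bases 21.3% are shared with Syn3 on the opposite strand. Timp4 had at most 2 counts in a library and was not tested.

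**Figure D3:**
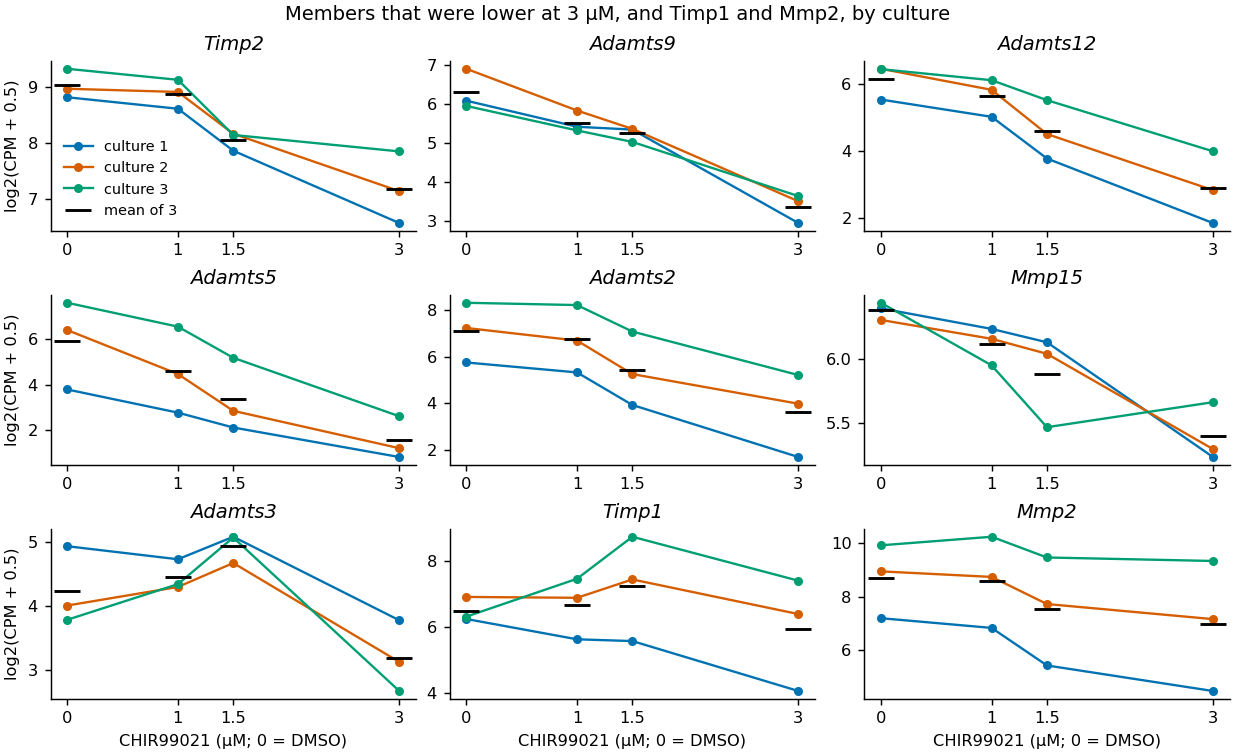
Level of 9 members, as log2 of CPM plus 0.5, against CHIR99021 dose, 1 line per culture, with the mean of the 3 values as a black bar. Timp2, Adamts9, Adamts12, Adamts5 and Adamts2 were lower at each step in all 3 cultures, Mmp15 fell at 3 µM, Adamts3 was highest at 1.5 µM, and in Timp1 and Mmp2 the cultures lay far apart.

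At 1.5 µM, 6 of the 37 tested members were called against DMSO, where 27.3% of all genes tested were (15.4% higher, 11.8% lower). Those higher were Mmp7, Mmp9 and Mmp10, and those lower were Adamts9, Mmp28 and Timp2. The culture block called 25 members, 5 higher and 20 lower, against 46.7% of all genes (22.3% higher, 24.3% lower). DESeq2 called 10, against 33% of all genes. Leaving out DMSO replicate 3 left 3 calls (20.7% of all genes in that fit), and leaving out culture 2 in all groups left 0 (2.98% of all genes). At 1 µM edgeR called 0 members, against 0.242% of all genes called (0.189% higher, 0.0522% lower). Its unadjusted p was under 0.05 for 2 of the 37 members, against 1798 of the 15316 genes tested. DESeq2 also called 0, against 3.51% of all genes (2.42% higher, 1.09% lower). The block called 3, Mmp9 and Mmp13 higher (2.55% of all genes were) and Adamts5 lower (3.06%), against 5.61% of all genes in either direction.

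Between neighbouring doses, 0 members differed at 1.5 against 1 µM in edgeR, where 5.43% of all genes did (4.43% higher, 0.992% lower). An unadjusted edgeR p under 0.05 was found for 5 of the 37 members, against 3292 of the 15316 genes tested. DESeq2 called 3 (Mmp10 higher, Mmp28 and Timp2 lower), against 11.2% of all genes (7.28% higher, 3.91% lower). The block called 13, against 21.9% of all genes. From 1.5 to 3 µM, 9 members were called, against 29.7% of all genes (17% higher, 12.7% lower). Mmp1b, Mmp7 and Mmp10 were higher and Adamts3, Adamts9, Adamts15, Adamts16, Adamts17 and Adamts20 lower. The Adamts15 call was lost in 5 of the 12 fits that left out 1 library (replicate 2 at 1 µM, 1 or 2 at 1.5 µM, 2 or 3 at 3 µM; adjusted p up to 0.126). That of Adamts17 was lost in 4 (replicates 1 and 2 at 1.5 and at 3 µM; up to 0.0861). The block gave 21 members, 7 higher and 14 lower, against 46.7% of all genes (24.7% higher, 22% lower), and leaving out culture 2 gave 1, against 2.25%.

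A slope over dose was called for 23 members (6 rising, 17 falling), against 58.2% of all genes (30.2% rising, 28% falling), and for 28 under the block, against 64.5%. Rising were Mmp1b, Mmp3, Mmp7, Mmp9, Mmp10 and Mmp13. The group means were highest in DMSO for 18 of the 37 tested members, at 1 µM for 8, at 1.5 µM for 3 (Adamts3, Adamts17 and Timp1) and at 3 µM for 8. Some 9 members were lower at each dose step in all 3 cultures (Adamts2, Adamts5, Adamts9, Adamts10, Adamts12, Mmp17, Mmp19, Mmp23 and Timp2), and 3 were higher at each step in all 3 (Mmp9, Mmp10 and Mmp13). For the highest means and the steady steps, the share of all genes was not counted.

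Of the 24 calls at 3 µM, 10 were lost in at least 1 fit that left out a library, Mmp13 among them. The fits that left out libraries had no culture block and so did not use the pairing. With the block over all 12 libraries, all 24 members were called. Among the 12 fits that left out 1 library, the call was lost for Mmp16 in 8 (DMSO 1, 2 or 3, replicate 2 at 1 µM, 1 or 2 at 1.5 µM, 1 or 2 at 3 µM; adjusted p up to 0.135). It was lost for Mmp11 in 7 (DMSO 2 or 3, replicate 2 at 1 µM, 2 or 3 at 1.5 µM, 1 or 2 at 3 µM; up to 0.124) and for Mmp28 in 7 (DMSO 1 or 2, replicate 1 at 1 µM, 1 at 1.5 µM, 1, 2 or 3 at 3 µM; up to 0.175). Mmp23 lost it in 6 (DMSO 2 or 3, replicate 2 at 1 µM, 2 at 1.5 µM, 1 or 2 at 3 µM; up to 0.137) and Adamts6 in 5 (DMSO 3, replicate 2 at 1 µM, 2 at 1.5 µM, 1 or 2 at 3 µM; up to 0.168). Adamts2 lost it in 4 (DMSO 2 or 3, replicate 1 or 2 at 3 µM; up to 0.105). Adamts3 (DMSO 1, replicate 2 or 3 at 3 µM; up to 0.0910), Adamts17 (DMSO 3, replicate 1 or 2 at 3 µM; up to 0.0993) and Mmp19 (DMSO 2 or 3, replicate 2 at 3 µM; up to 0.0945) lost it in 3 each. The calls of Mmp1b, Mmp7, Mmp9, Mmp10, Mmp15, Mmp17, Timp2, Adamts5, Adamts9, Adamts10, Adamts12, Adamts15, Adamts16 and Adamts20 were kept in all 12. Without culture 2 in all groups, 8 calls were left, against 31.1% of all genes, those of Mmp1b, Mmp7, Mmp9, Mmp10, Mmp15, Adamts9, Adamts20 and Timp2.

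To compare levels between genes, CPM was divided by exon length in kb (GENCODE M21). Per kb, Mmp2 had the highest mean in DMSO at 159 ± 122, followed by Timp2 at 135 ± 25.1, Timp1 at 102 ± 27.7, Mmp14 at 63.6 ± 26.3 and Mmp3 at 36.7 ± 46.2 CPM per kb (mean ± SD, n = 3). The SDs of Mmp2, Timp2 and Timp1 overlap, and in culture 1 Mmp2 (43.5) lay below Timp2 (115) and Timp1 (84.3). At 3 µM the order was Mmp3 at 509.5 ± 658, Timp1 at 100.2 ± 85.7, Mmp2 at 80.2 ± 98.2, Mmp13 at 60.3 ± 35.6, Mmp10 at 57.5 ± 70.2, Timp2 at 39.7 ± 17.6 and Mmp14 at 33.6 ± 20.2, with spreads between cultures as large as most gaps. In DMSO, Mmp9 stood at rank 25 and Mmp10 at rank 32 of the 45 members, and at 3 µM at ranks 8 and 5. Among the Adamts genes the highest mean per kb was that of Adamts2 in DMSO (18.5 ± 14.2) and Adamts1 at 3 µM (14.2 ± 4.84), but the highest gene differed between cultures. In DMSO it was Adamts15 in culture 1 (10.3), Adamts1 in culture 2 (19.4) and Adamts2 in culture 3 (33.7), and at 3 µM Adamts4 (24.6) lay above Adamts1 (19.04) in culture 3.

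Summed per kb over all Mmp genes, the level in cultures 1, 2 and 3 was 137, 292 and 553 in DMSO and 137, 426 and 1827 at 3 µM, while that of the Adamts genes was 55.1, 97.9 and 134 in DMSO and 25.6, 36.5 and 63.2 at 3 µM. The Timp sum was 232, 283 and 273 in DMSO and 49.5, 147 and 265 at 3 µM. The ratio of the Mmp to the Timp sum was 0.588, 1.03 and 2.02 in DMSO and 2.77, 2.89 and 6.89 at 3 µM, and in each culture 3 µM was the highest dose. At 1.5 µM the ratio was 0.666, 0.641 and 1.32, which in cultures 2 and 3 was the lowest of the 4 doses. The 6 Mmp genes with a rising slope, a set chosen after their values were seen, made up 5.40% to 18.3% of the Mmp sum in DMSO and 74.5% to 84.4% at 3 µM, where Mmp3 alone held 34.4% to 69.1%. These sums are RNA levels and say nothing of protein, secretion or enzyme activity.

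**Figure D4:**
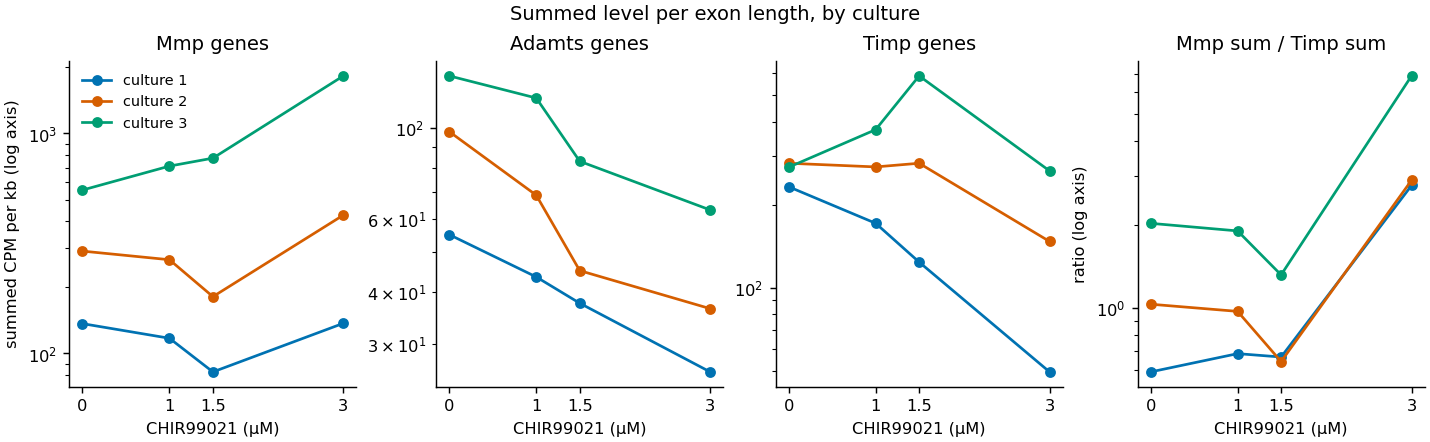
Summed level per exon length of the Mmp, Adamts and Timp genes and the ratio of the Mmp to the Timp sum (log axes) against CHIR99021 dose, 1 line per culture. The Adamts sum was lower at each step in all 3 cultures, and the ratio was highest at 3 µM in each culture (2.77, 2.89 and 6.89).

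The cultures themselves differed. The titles also mark cultures 1, 2 and 3 as med, min and max, words that the labels do not explain. In a model with dose and culture, edgeR called culture differences for 26 of the 37 tested members, against 28.8% of all genes. At all 4 doses 16 members were highest in culture 3, and 15 ran in the order culture 1, 2, 3, among them Mmp2, Mmp3, Mmp14 and Adamts2. How many of all genes tested kept these orders was not counted, and the second principal component ran 1, 2, 3 too. Adamts3 and Adamts15 were highest in culture 1 at all 4 doses. The test of whether slopes over dose differ between cultures called 0 members and 0% of all genes.

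Marker levels moved with dose and culture in the same libraries. The 9 fibroblast markers (Pdgfra, Pdgfrb, Col1a1, Col1a2, Col3a1, Dcn, Lum, Dpt and Thy1) summed to 1640, 7400 and 20566 CPM in cultures 1, 2 and 3 in DMSO, and to 180.3, 986 and 4587 CPM at 3 µM. None was at 0 in any library. edgeR called 1 of the 9 lower at 3 µM (Dpt), and 8 of 9 with the block, against 27.7% and 34.8% of all genes tested. Col1a1, Col1a2 and Col3a1 made up most of the sum, with means of 2253, 2425 and 4260 CPM in DMSO, and Dcn went the other way without a call, from 294 ± 300.2 to 400.1 ± 583 CPM (log2 change 0.44, adjusted p = 0.838). Cultures thus ran 1, 2, 3 in this sum at both doses, the order of 15 members and also of the second principal component over all genes tested.

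Of 6 leukocyte markers, 5 were tested (Ptprc, Csf1r, Cd68, C1qa and Mrc1), and these summed to 52.1, 274 and 594 CPM in DMSO and 11.7, 27.1 and 64.1 CPM at 3 µM, with 4 of 5 lower, and 5 of 5 with the block. The 5 endothelial markers summed to 243 to 503 CPM in DMSO and 27.1 to 86.6 CPM at 3 µM, with 5 of 5 lower, and the 3 adipocyte markers were lower too. The 5 markers of squamous differentiation (Krt1, Krt10, Ivl, Flg and Sbsn) summed to 63.6 to 77.3 CPM in DMSO and to 16235, 12311 and 1096 CPM at 3 µM, all 5 higher. These marker counts stand beside 27.7% of all genes called lower and 29.9% higher at 3 µM, or 34.8% and 34.1% with the block. The epithelial sum was 29911, 33005 and 16283 CPM at 3 µM, with Krt5 (log2 change 3.42, edgeR adjusted p = 1.62e-05) and Krt14 (3.84, 1.86e-05) higher and Krt8 (−0.75, 0.0137) and Krt18 (−0.48, 0.0115) lower. At 3 µM culture 3, which had the lowest squamous sum there, was the highest of the cultures for Mmp1b, Mmp3, Mmp9, Mmp10 and Mmp13 and the lowest for Mmp7 (2.90, 2.76 and 1.66 CPM). As a ratio to its own DMSO library, culture 3 was the lowest for Mmp9 (57.6, 80.0 and 22.8 in cultures 1, 2 and 3) and for Mmp13 (15.6, 21.9 and 10.6), and between the others for Mmp3 (6.18, 17.5 and 14.03). Culture 3 was the highest for Mmp10 (44.1, 94.8 and 1099.7). For Mmp1b it lay above culture 2 (51.3 against 17.7), while culture 1 had 0 counts in DMSO and no ratio. The Mmp10 and Mmp1b ratios rest on few counts in DMSO. The part of these cell types in the members' changes was not tested.

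**Figure D5:**
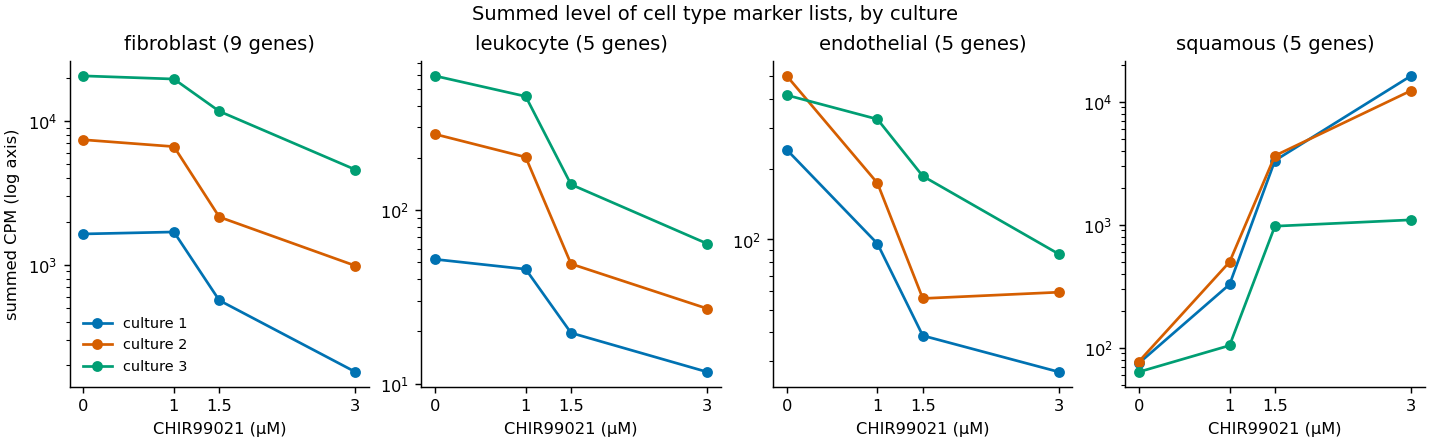
Summed CPM (log axes) of fibroblast, leukocyte, endothelial and squamous marker genes against CHIR99021 dose, 1 line per culture. Fibroblast and leukocyte sums were ordered culture 3, 2, 1 at each dose and were lowest at 3 µM, and the squamous sum at 3 µM was 1096 CPM in culture 3 against 16235 and 12311 CPM in cultures 1 and 2.

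Other genes of the same system were counted from 6 lists. Of 8 activators and plasminogen genes, 2 were higher at 3 µM, the proprotein convertase Pcsk6 (log2 fold change 3.54, adjusted p = 1.76e-06) and the Mmp inducer Bsg (0.96, adjusted p = 0.00399). The convertases Furin (−0.55, adjusted p = 0.00615) and Pcsk5 (−3.55, adjusted p = 0.00823) were lower. These counts stand beside the 29.9% of all genes called higher and 27.7% lower, and the block gave 3 higher and 3 lower. The median over this list was −0.06, against −0.03 over all genes tested. Of 7 tested inhibitors and clearance genes outside the Timp family, 5 were lower and 0 higher, with a median of −2.19, or −1.91 with A2m set at the floor at 3 µM. They were the membrane-anchored Mmp inhibitor Reck (−1.91, adjusted p = 0.0489), the protease inhibitor Serpine2 (−2.19, adjusted p = 8.73e-05), the testican Spock2 (−2.92, adjusted p = 0.0106), Papln (−4.11, adjusted p = 9.34e-05) and A2m, which averaged only 0.964 CPM in DMSO. With the block 6 were lower.

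Of the 8 ADAM sheddases, relatives that cut membrane proteins, Adam17 was higher (log2 fold change 0.42, adjusted p = 0.0297) and 3 were lower, Adam9 (−0.37), Adam15 (−0.60) and Adam12 (−3.78, adjusted p = 0.000212). The median was −0.49, the share of all genes was 27.7% lower and 29.9% higher as above, and the block called 5 of the 8 lower and 1 higher. Of the 5 ADAMTS-like proteins, which share domains with the Adamts enzymes but lack the protease, 4 were lower. Adamtsl3 (−3.52, adjusted p = 0.00363) and Adamtsl4 (−1.91, adjusted p = 0.00314) were still measured at 3 µM, while Adamtsl1 and Adamtsl2 averaged 4.51 and 8.56 CPM in DMSO and lay under the floor of 0.305 CPM at 3 µM (adjusted p = 0.00176 for each). The median was −3.52. Of the tolloid proteases, which trim procollagens at the other end, Bmp1 was lower (−0.94, adjusted p = 0.0280) and Tll1 was called with the block only (−1.41, edgeR adjusted p = 0.0618, with the block 0.000684). Both tested proteoglycan substrates were lower. Vcan fell by 1.83 on the log2 scale (adjusted p = 0.0386), and Ncan averaged 20.1 CPM in DMSO and was at 0 in all 3 µM libraries (adjusted p = 0.00229).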

How the data were processed

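Polyadenylated RNA of 12 libraries was prepared with a stranded kit and sequenced by Illumina, per the labels' protocols. What the authors deposited and was used here were whole-number read counts per Ensembl gene, the only unit used. TopHat2 2.1, Bowtie 1.1.0, HTSeq, DESeq2 and the build GRCm38 are named in the submitters' processing notes, without their roles. Whether counting used the strand, and the annotation release, are not given in the sources used here. Library totals of 10.1 to 24.5 M counts set the floor of 3 counts at 0.305 CPM in the smallest library. Counting intervals (exact, 95%) cover counting error only.

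Genes were filtered with filterByExpr (15316 kept) and scaled by TMM, and CPM uses the TMM-scaled library size. The quasi-likelihood test of edgeR 4.0.16 (R 4.3.3, limma 3.58.1; two-sided, robust) was fitted over all 12 libraries without a culture block, with Benjamini-Hochberg adjustment over all genes tested. SE is the log2 fold change divided by the square root of F.

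Culture numbers pair the libraries, since the labels give each number 1 animal. Over the 18 pairs of libraries with the same number, deviations from group means correlated at 0.177 to 0.840 (median 0.505), and at a median of −0.21 over the 36 pairs of other numbers. The common coefficient of biological variation was 0.305, and 0.156 with the block. Within groups, libraries differed beyond sampling noise (chi-square per degree of freedom at least 12.8).

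Alternatives were the block, RLE scaling, library size only, no filter, DESeq2 1.42.0, fits of only the groups compared and leaving out each library. Leaving out a whole culture was added after seeing the data. Each tested member is named with its level, and members called in a group comparison and averaging at least 1 CPM are given library by library. Untested members have their highest count, and genes of the other lists are named only where called at 3 µM, with Tll1 (called with the block) and the spelled-out marker lists as exceptions. Members and lists were chosen with earlier results of these data known. Exon lengths were taken from GENCODE M21, which holds 24902 of the 25210 identifiers and all 45 members. Promoters were taken from RefSeq (GRCm38.p6).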

Additional observations from a re-analysis of the deposited data

How the results depend on the processing

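The counts of members called depended on whether treatments were compared within a culture. With the replicate block the pairing of libraries gave 3 members at 1 µM, 25 at 1.5 µM, 13 at 1.5 against 1 µM and 21 at 3 against 1.5 µM, and it changed no other count of calls by over 1.5 times. DESeq2 gave 10 at 1.5 µM and 3 at 1.5 against 1 µM. Fitting only the groups compared gave 1 at 1.5 against 1 µM (6.54% of all genes) and 5 at 3 against 1.5 µM (20.2%). These fits, and those that left out a library or a culture, had no block. Leaving out 1 library gave 0 to 0 members at 1 µM, 3 to 8 at 1.5 µM (lowest without DMSO replicate 3, with 20.7% of all genes called), 15 to 25 at 3 µM (lowest without replicate 2 at 3 µM, 48.2%), 0 to 2 at 1.5 against 1 µM, 6 to 12 at 3 against 1.5 µM (lowest without replicate 2 at 1.5 µM, 19.2%), 15 to 24 for the slope (lowest without replicate 2 at 3 µM, 48.8%) and 18 to 29 for culture differences (lowest without replicate 1 at 1 µM, 17.1%). Without culture 2 in every group the counts were 0 at 1.5 µM (2.98% of all genes), 8 at 3 µM (31.1%), 1 at 3 against 1.5 µM (2.25%) and 10 for the slope (37.6%). Without culture 3 they were 1 at 1 µM (0.773%), 10 at 1.5 µM (30.1%), 2 at 1.5 against 1 µM (7.39%) and 16 at 3 against 1.5 µM (33.7%), and without culture 1 culture differences numbered 8 (7.44%). Slopes differing between cultures stayed at 0 with RLE scaling, library size only and no filter.

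Under the alternatives run, no direction of a called member turned at 3 µM. Among uncalled members the log2 fold change turned for Timp1 (0.20 without DMSO replicate 2, 0.44 without replicate 1 at 3 µM, 0.35 without culture 1, 0.26 without culture 2), Adamts4 (0.14 without replicate 1 at 3 µM, 0.073 without culture 2), Adamts1 (0.070 without DMSO replicate 3), Adamts14 (−0.18 without replicate 3 at 3 µM) and Mmp8 (0.12 without culture 2). Leaving out 1 library gave ranges of −0.71 to 0.070 for Adamts1, −0.18 to 1.42 for Adamts14, −1.59 to 0.14 for Adamts4 and −0.89 to 0.44 for Timp1. The cause was not tested. Without the filter on low counts, the calls of Adamts2 (adjusted p = 0.0725), Mmp11 (0.0760), Mmp16 (0.0525), Mmp19 (0.0573) and Mmp23 (0.0682) at 3 µM were lost in edgeR. With only the groups compared, those of Mmp11, Mmp16, Mmp19, Mmp23, Mmp28, Adamts3 and Adamts17 were lost (adjusted p from 0.0529 to 0.0681). Depth limits Mmp7, Mmp1b, Mmp10, Adamts6, Adamts16, Adamts18 and Adamts20, which rest on a few counts per library in at least 1 group. It also limits Mmp16, which held 0, 2 and 18 counts at 3 µM.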
